A study of Hordeum vulgare with 12 samples.

Results

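A group of 68 root genes was at least 4-fold lower in *hvatr.g* plants than in WT plants, both without and with zeocin. It was taken from the 83990 rows of a count table of barley root apices. CPM is a count scaled to a library total of 1000000. A gene entered when its mean CPM in *hvatr.g* was at most 0.25 of that in WT under each treatment and no *hvatr.g* library reached the lowest WT library. The WT mean also had to be at least 5 CPM and the *hvatr.g* mean at least 0.5 CPM in each treatment, so genes near silent in the mutant are not included. Of 98 rows with the required WT level and ratio, 86 had the *hvatr.g* level and 77 also had no overlap between libraries. Of these 77, 9 were left out because their identifiers lie in a listed set, which covers stretches of chromosome 7H and single genes. The difference between genotypes therefore chose these genes, and it is described below without a test.

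The study compared barley cv. Sebastian (WT) with *hvatr.g*, a mutant line found by TILLING in the gene *ATR* (7HG0748510). The plants were 7 days old and were moved to liquid medium with 0 (mock) or 500 µg/ml zeocin, a compound that breaks DNA, for 6 h. Poly(A) RNA came from dissected root apices, with 3 biological replicates in each of the 4 groups (each genotype with each treatment). TILLING lines carry many induced mutations besides the one of interest, and *hvatr.g* was the only mutant line sequenced, so *ATR* and other changes in that line cannot be told apart. Total counts ran from 36100439 to 74699245 per library, with the highest in mock *hvatr.g* replicate 1. *ATR* itself lay between 9.13 and 15.2 CPM in WT and between 13.2 and 20.7 CPM in *hvatr.g*, and transcript level does not check the genotype of a TILLING allele. Gene identifiers are those of the third Morex annotation, shortened here to the part that gives chromosome and gene order.

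ATR is a kinase that halts the cell cycle and directs repair when replication stalls or DNA is broken. A root apex holds the dividing meristem and, above it, cells that stop dividing, elongate and begin to differentiate into epidermis with root hairs, cortex, endodermis and vessels. Elongation needs enzymes that loosen or rebuild the cell wall. Expansins loosen contacts between wall polymers, secreted class III peroxidases use hydrogen peroxide to cross-link or cleave wall components, glucanases cut glucans such as callose, and pectin enzymes change how stiff the wall is. In a dissected apex, fewer cells of a type and less RNA per cell cannot be told apart.

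The 68 rows, each a different gene, made up a small part of the root transcriptome. Together they reached 5537, 5489 and 6522 CPM in mock WT and 6083, 4780 and 6289 CPM in zeocin-treated WT. In mock *hvatr.g* their sum was 1034, 982 and 1054 CPM, and with zeocin it was 996, 1223 and 911 CPM. The mean sum was 5.72 times higher in WT under mock and 5.48 times higher under zeocin. By this sum every *hvatr.g* library lay far under every WT library. For single genes the rule requires only that *hvatr.g* libraries be lower within a treatment, by any amount. The 3 most abundant genes held 40.2% of the sum in mock WT and 40.2% in mock *hvatr.g*. Group means of single genes ran from 6.70 to 830.0 CPM in mock WT, with a median of 26.2, and from 0.502 to 168 CPM in mock *hvatr.g*, with a median of 4.51. The median fold was 5.98 under mock and 5.64 under zeocin, and 8 genes were more than 10-fold lower under both treatments. For 56 genes the folds under the 2 treatments lay within 1.5 times of each other. The lowest WT library exceeded the highest *hvatr.g* library by at least 2 times under both treatments for 53 genes, and by as little as 1.19 times for the closest gene. Over all tested rows, 12.8% under mock and 14.9% under zeocin had all *hvatr.g* libraries under all WT libraries, a condition the rule had set for the 68. Lowest counts in *hvatr.g* ran from 4 to 5704, so the weakest genes carry sizeable counting error. Where a pair of folds is given for a gene below, the first is under mock and the second under zeocin.

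**Figure D1:**
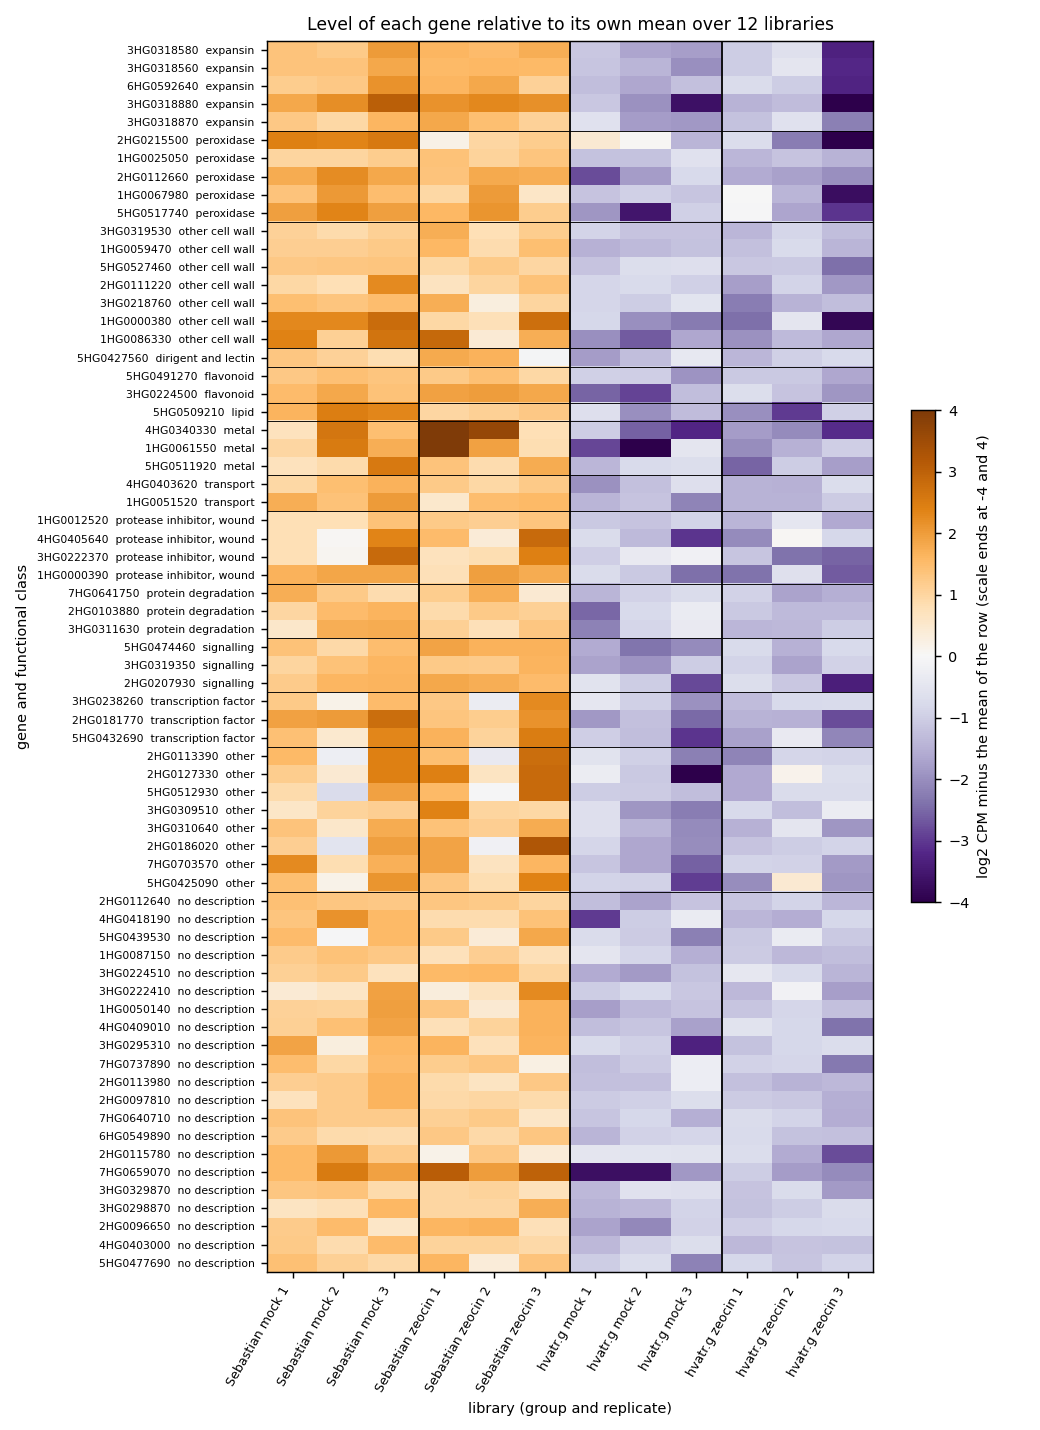
Level of the 68 genes (rows, grouped by functional class) in the 12 libraries (columns), as log2 CPM minus the row mean, with purple for low and orange for high values and the scale ended at -4 and 4. The 6 WT columns are orange in nearly all rows and the 6 *hvatr.g* columns purple, as the rule requires, and the shade varies between libraries of a group for the metal, B12D, trypsin inhibitor and expansin rows.

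Descriptions were taken from the excerpt of the study's tables used here, which holds mostly genes far lower in zeocin-treated *hvatr.g* than in WT or changed by zeocin. It covered 47 of the 68 genes and not the other 21, and no share of a class among all tested genes can be given from it. By keywords in these descriptions there were 5 expansins, 5 peroxidases and 7 other cell wall genes. A further 4 genes encoded protease inhibitors or proteins linked to wounding and jasmonate. Proteases, signalling proteins, transcription factors and metal proteins had 3 genes each, transporters and flavonoid enzymes had 2 each, and a dirigent protein and a lipoxygenase stood alone. The remaining 8 described genes matched no class. None of the 68 was in the study's DNA damage response list of 421 genes, of which 322 had enough counts to test. Because the 68 are a small part of the 26039 tested rows, this count lies near background and is no result about the group.

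The expansins were lower by 5.98-fold to 20.5-fold under mock and by 6.31-fold to 16.7-fold under zeocin. The most abundant, 3HG0318580, had 198, 183 and 313 CPM in mock WT, 234, 218 and 255 in zeocin-treated WT, 35.3, 24.1 and 22.8 in mock *hvatr.g*, and 38.2, 50.1 and 7.89 in *hvatr.g* with zeocin. It was 8.44-fold lower under mock and 7.35-fold lower under zeocin. Mock WT replicate 3 was the highest of its libraries, while zeocin-treated *hvatr.g* replicate 3 lay far under the other libraries of its group. Its neighbour 3HG0318560 had 57.9, 57.3 and 80.5 CPM in mock WT, 66.1, 66.7 and 66 in zeocin-treated WT, 10.3, 8.47 and 5.67 in mock *hvatr.g*, and 11.2, 16.1 and 2.46 in *hvatr.g* with zeocin. The same *hvatr.g* library was again the lowest, and the folds were 8.01 and 6.67. Farther along the chromosome, 3HG0318880 had 30.4, 39.4 and 69.9 CPM in mock WT, 37.2, 41.5 and 38 in zeocin-treated WT, 3.95, 2.19 and 0.679 in mock *hvatr.g*, and 3.07, 3.46 and 0.444 in *hvatr.g* with zeocin, or 20.5-fold and 16.7-fold lower. For this gene replicate 3 was the lowest *hvatr.g* library under both treatments, and 3HG0318870 and 6HG0592640 showed smaller folds of 5.98 and 6.31 and of 7.8 and 7.27. All 5 expansins also belong to a list that the study's gene ontology analysis named sexual reproduction. It holds 12 genes, all 12 of which were called lower in mock *hvatr.g* (edgeR, adjusted p under 0.05 and log2 fold change at most -1), against 4.58% of the 26039 rows tested (25807 genes). The study drew that list from these libraries, so its direction is not independent evidence. The descriptions at hand named 11 expansin genes, of which 10 had enough counts to test and 5 were among the 68. Under mock 7 were called lower in *hvatr.g* and 0 higher, with log2 fold changes from -4.40 to 0.46. Under zeocin 7 were again called lower and 0 higher, with values from -4.15 to 0.69. Because the excerpt that gave the descriptions favours lowered genes, these counts are no share of all expansins.

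**Figure D2:**
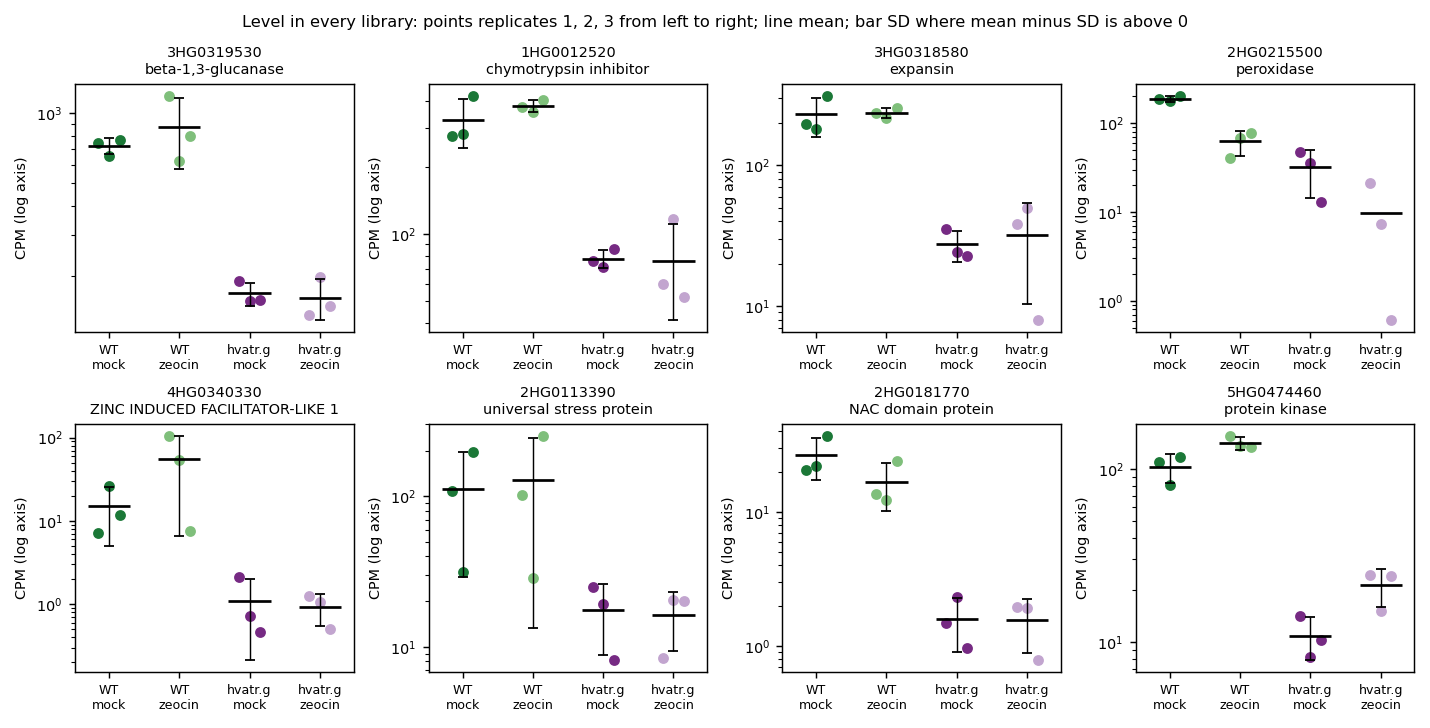
CPM on a log axis of 8 genes in every library of the 4 groups; points are replicates 1 to 3 from left to right, the line is the mean and the bar the SD (n = 3), left out where it would pass 0. Within each treatment the *hvatr.g* points lie under the WT points in each panel, as far apart as 1.49, 2.32 and 0.97 against 20.4, 21.9 and 37 CPM for the NAC gene under mock. Across treatments they can cross, as for the peroxidase, at 47.8 CPM in mock *hvatr.g* replicate 1 and 40.2 CPM in zeocin-treated WT replicate 1. Single libraries stand apart for the expansin, the peroxidase and ZIFL1.

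Peroxidase 2HG0215500 was the most abundant of the described peroxidases. It had 187, 176 and 204 CPM in mock WT, 40.2, 69 and 78 in zeocin-treated WT, 47.8, 35.4 and 12.8 in mock *hvatr.g*, and 21.3, 7.32 and 0.601 in *hvatr.g* with zeocin. Its level was 5.9-fold lower under mock and 6.4-fold lower under zeocin, and within each genotype its zeocin-treated libraries were mostly lower than its mock libraries. Peroxidase 1HG0025050 had the least change of the class under mock, at 4.07-fold and 6.02-fold, and its libraries were even, with 126, 125 and 139.6 CPM in the mock WT libraries and 27.1, 27.2 and 41.8 in the mock *hvatr.g* libraries, and under zeocin 161, 128 and 156 in WT and 23.6, 27.8 and 22.6 in *hvatr.g*. Peroxidase 2HG0112660 was 11.6-fold lower under mock and 10.6-fold lower under zeocin. It had 108, 148 and 111 CPM in mock WT, 79.8, 110.0 and 104 in zeocin-treated WT, 4.54, 9.07 and 18 in mock *hvatr.g*, and 10.5, 9.42 and 7.89 in *hvatr.g* with zeocin. Its WT libraries were all near or above 80 CPM, and in mock *hvatr.g* replicate 1 was the lowest and replicate 3 the highest. Peroxidases 5HG0517740 and 1HG0067980 were rarer, with WT mock means of 7.39 and 16.2 CPM and folds of 14.7 and 6.77 and of 6.69 and 5.18.

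The most abundant gene of all, 2HG0112640, had no description but was in the study's list for hydrogen peroxide catabolic process. It had 882, 812 and 796 CPM in mock WT, 816, 770.2 and 672 in zeocin-treated WT, 136, 101 and 148 in mock *hvatr.g*, and 149, 178 and 127 in *hvatr.g* with zeocin. The libraries of each group were close together, and the folds were 6.46 and 4.97. Another undescribed gene of that list, 7HG0737890, was 4.39-fold lower under mock and 4.56-fold lower under zeocin. In all the list held 37 genes, 7 of them among the 68. Under mock 32 of the 37 were called lower in *hvatr.g*, with a median log2 fold change of -2.02. Under zeocin 24 were called lower, with a median of -1.62. Over all tested genes the shares called lower were 4.58% under mock and 5.56% under zeocin. The study drew this list too from genes lowered in mock *hvatr.g* in these libraries, so its direction is not independent evidence. Its count under mock was 21 without mock WT replicate 3 and 18 to 21 without any one mock *hvatr.g* replicate.

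Of the other wall genes, beta-1,3-glucanase 3HG0319530 was the most abundant. It had 747, 656 and 767 CPM in mock WT, 1188, 622 and 795 in zeocin-treated WT, 190.1, 157 and 158 in mock *hvatr.g*, and 137, 198 and 149 in *hvatr.g* with zeocin, which gave folds of 4.3 and 5.38. The WT libraries varied more under zeocin, through replicate 1, and the *hvatr.g* libraries stayed between 137 and 198 CPM. A further beta-1,3-glucanase, 1HG0059470, had 269, 266 and 287 CPM in mock WT, 364, 219 and 333 in zeocin-treated WT, 43.4, 47.7 and 52.4 in mock *hvatr.g*, and 51.3, 70.3 and 45.1 in *hvatr.g* with zeocin. It was 5.72-fold lower under mock and 5.49-fold lower under zeocin. Under zeocin, replicate 2 was the lowest of the WT libraries and the highest of the *hvatr.g* libraries. Endoglucanase 1HG0086330, of a family that cuts cellulose-like chains, had 10.8, 4.43 and 12.8 CPM in mock WT, 14.8, 2.75 and 6.86 in zeocin-treated WT, 0.522, 0.328 and 0.654 in mock *hvatr.g*, and 0.532, 0.817 and 0.653 in *hvatr.g* with zeocin. Its folds of 18.6 and 12.2 were among the largest of the 68, while its WT replicate 2 was the lowest WT library in each treatment. Pectin lyase-like gene 1HG0000380 had 9.24, 9.25 and 12.9 CPM in mock WT, 3.66, 3.18 and 12.6 in zeocin-treated WT, 1.06, 0.474 and 0.388 in mock *hvatr.g*, and 0.348, 1.33 and 0.131 in *hvatr.g* with zeocin. It was 16.4-fold lower under mock and 10.7-fold lower under zeocin, and replicate 3 was the highest WT library under both treatments. The enzymes that remove methyl or acetyl groups from pectin, pectinesterase 2HG0111220 and pectin acetylesterase 5HG0527460, were lower by 5.16-fold and 5.62-fold and by 4.28-fold and 5.55-fold, and beta-glucosidase 3HG0218760 by 4.61-fold and 6.66-fold. Dirigent protein 5HG0427560, of a family that guides the coupling of lignin-like phenols, was 4.33-fold lower under mock and 5.16-fold lower under zeocin.

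Flavonoid genes were represented by chalcone synthase 3HG0224500, which makes the first flavonoid precursor, and by dihydroflavonol-4-reductase 5HG0491270, a later step. The chalcone synthase gene had 17.3, 21.4 and 16 CPM in mock WT, 22.8, 23.9 and 21.7 in zeocin-treated WT, 1.03, 0.821 and 2.52 in mock *hvatr.g*, and 3.84, 2.7 and 1.62 in *hvatr.g* with zeocin. It was 12.5-fold lower under mock and 8.37-fold lower under zeocin, and its WT libraries lay within a narrow range. The reductase gene had 43.5, 48.2 and 45.5 CPM in mock WT, 42.8, 48.1 and 35.3 in zeocin-treated WT, 9.36, 9.12 and 4.82 in mock *hvatr.g*, and 8.65, 8.55 and 5.86 in *hvatr.g* with zeocin. It was steadier than the synthase gene in mock WT but less steady in zeocin-treated WT, and its folds were 5.89 and 5.48. Lipoxygenase 5HG0509210 belongs to the enzymes that oxygenate fatty acids, the first step toward jasmonate. It had 9.41, 16.6 and 15.2 CPM in mock WT, 5.92, 6.55 and 7.25 in zeocin-treated WT, 1.94, 0.766 and 1.24 in mock *hvatr.g*, and 0.757, 0.381 and 1.54 in *hvatr.g* with zeocin, or 10.4-fold and 7.36-fold lower, and in WT all zeocin-treated libraries lay under all mock libraries.

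Among the protease inhibitors, which block digestive enzymes of insects and microbes, chymotrypsin inhibitor 1HG0012520 was the most abundant. It had 277, 282 and 421 CPM in mock WT, 375, 357 and 402 in zeocin-treated WT, 75.8, 71.4 and 85.9 in mock *hvatr.g*, and 59.6, 117 and 52.3 in *hvatr.g* with zeocin. The folds were 4.21 and 4.96, and zeocin-treated replicate 2 was the highest *hvatr.g* library. Trypsin inhibitor 4HG0405640 had 24, 14.3 and 70.4 CPM in mock WT, 39.7, 18.2 and 97.7 in zeocin-treated WT, 8.31, 5.57 and 1.67 in mock *hvatr.g*, and 3.31, 14.3 and 7.84 in *hvatr.g* with zeocin. Its folds were 6.99 and 6.12, but libraries of 1 group differed widely, with WT replicate 2 low and replicate 3 high under both treatments. Trypsin inhibitor 3HG0222370 and jasmonate-induced protein 1HG0000390 were lower by 4.54-fold and 10.8-fold and by 8.26-fold and 8.92-fold. Aspartic proteinases 2HG0103880 and 7HG0641750 were lower by 5.17-fold and 5.07-fold and by 5.03-fold and 5.83-fold, and metacaspase-1 gene 3HG0311630, of a protease family linked to programmed cell death, by 5.24-fold and 4.99-fold. The 3 proteases spanned the narrowest range of folds of any class with 3 or more genes under mock, from 5.03 to 5.24.

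The 3 metal genes included the one with the widest spread among zeocin-treated WT libraries, a metallothionein gene. *ZINC INDUCED FACILITATOR-LIKE 1* (*ZIFL1*, 4HG0340330) encodes a membrane carrier of the major facilitator type, whose Arabidopsis namesake acts in root auxin transport. It had 7.09, 26.6 and 11.8 CPM in mock WT, 106, 54 and 7.52 in zeocin-treated WT, 2.13, 0.73 and 0.461 in mock *hvatr.g*, and 1.25, 1.06 and 0.497 in *hvatr.g* with zeocin. Under zeocin the fold was 59.6, the largest of the 68, and under mock it was 13.7. The zeocin value rested on WT replicates 1 and 2, since replicate 3 stayed at the mock level. Metallothionein gene 1HG0061550, for a small protein that binds metal ions through cysteines, had 4.04, 11.8 and 6.8 CPM in mock WT, 52.5, 7.8 and 3.65 in zeocin-treated WT, 0.281, 0.073 and 1.48 in mock *hvatr.g*, and 0.511, 0.735 and 1.05 in *hvatr.g* with zeocin. Here WT zeocin-treated replicate 1 stood alone, and the folds were 12.3 and 27.9. Blue copper protein gene 5HG0511920 was 5.8-fold lower under mock and 8.2-fold lower under zeocin. In the study's nicotianamine biosynthetic list, whose products bind iron and other metals, 7 of 8 genes were called lower under mock and 8 of 8 under zeocin, and none of them was among the 68. The share over all tested genes was 4.58% and 5.56%, and since the study drew this list from genes lowered in these libraries, its direction is not independent evidence. The count under mock was 3 or 4 without mock WT replicate 2 or mock *hvatr.g* replicate 1 or 2, and 1 in limma-voom. Transport was represented by sucrose transporter 4HG0403620, which moves sucrose across membranes, with 54.2, 75.9 and 88.6 CPM in mock WT, 64.9, 54 and 66 in zeocin-treated WT, 7.12, 11.7 and 17.8 in mock *hvatr.g*, and 10.1, 9.83 and 17 in *hvatr.g* with zeocin. It was 5.98-fold lower under mock and 5-fold lower under zeocin, and mock *hvatr.g* replicate 1 was its lowest library. DETOXIFICATION gene 1HG0051520, for an efflux carrier, was lower by 9.51-fold and 5.88-fold. The study's nitrogen transport list also held none of the 68. Of its 31 tested genes, 22 were called lower and 3 higher under mock, and 17 lower and 4 higher under zeocin. Over all tested genes 4.58% were lower and 3.87% higher under mock, and 5.56% and 3.46% under zeocin. The study built this list too from genes that differed between the genotypes in these libraries, so the counts follow from that choice.

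Signalling genes comprised protein kinases 5HG0474460 and 2HG0207930 and annexin 3HG0319350, an annexin being a protein that binds membranes when calcium rises. The first kinase had 109, 80.6 and 117 CPM in mock WT, 156, 135 and 134 in zeocin-treated WT, 14.2, 8.17 and 10.3 in mock *hvatr.g*, and 24.5, 15.1 and 24.1 in *hvatr.g* with zeocin. It was 9.4-fold lower under mock and 6.67-fold lower under zeocin, and in each genotype every zeocin-treated library lay above every mock library. The annexin gene had 16.4, 20.9 and 24.8 CPM in mock WT, 18.9, 18.6 and 25.3 in zeocin-treated WT, 2.46, 2.13 and 4 in mock *hvatr.g*, and 4.38, 2.48 and 4.23 in *hvatr.g* with zeocin, or 7.23-fold and 5.67-fold lower. The second kinase gene was lower by 6.42-fold and 8.26-fold. NAC domain gene 2HG0181770, of a plant-specific family of transcription factors, had 20.4, 21.9 and 37 CPM in mock WT, 13.7, 12.2 and 24.1 in zeocin-treated WT, 1.49, 2.32 and 0.97 in mock *hvatr.g*, and 1.96, 1.93 and 0.784 in *hvatr.g* with zeocin. It was 16.6-fold lower under mock and 10.7-fold lower under zeocin, with no WT library under 12 CPM. The gene described only as a putative transcription factor, 3HG0238260, had 192, 91.7 and 231 CPM in mock WT, 194, 66.3 and 388 in zeocin-treated WT, 59.5, 41.6 and 21 in mock *hvatr.g*, and 32.9, 46.7 and 48 in *hvatr.g* with zeocin. Its folds were 4.22 and 5.09, and WT replicate 2 was the lowest WT library under both treatments. The gene for an Enhancer of polycomb-like factor, 5HG0432690, was lower by 8.76-fold and 8.33-fold.

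Among described genes outside these classes, universal stress protein gene 2HG0113390 had 108, 31.4 and 198 CPM in mock WT, 101, 28.8 and 253 in zeocin-treated WT, 25.1, 19.1 and 8.12 in mock *hvatr.g*, and 8.36, 20.5 and 20 in *hvatr.g* with zeocin, with folds of 6.44 and 7.83. B12D protein gene 2HG0127330 had 32.4, 19.4 and 77 CPM in mock WT, 76.4, 22.5 and 101 in zeocin-treated WT, 11.6, 6.72 and 0.17 in mock *hvatr.g*, and 4.64, 15.6 and 8.97 in *hvatr.g* with zeocin, or 6.97-fold and 6.86-fold lower; in rice a B12D protein acts in mitochondria during growth under flooding. For both, WT replicate 2 was low and mock *hvatr.g* replicate 3 was the lowest library of all. Glutathione S-transferase T3 gene 7HG0703570 was lower by 10.4-fold and 6.23-fold, the widest gap between treatments in this set. The undescribed 7HG0659070 had the largest fold under mock. It had 12.9, 24.9 and 16.5 CPM in mock WT, 37.3, 17.3 and 34.9 in zeocin-treated WT, 0.348, 0.347 and 1.21 in mock *hvatr.g*, and 2.19, 1.25 and 1.07 in *hvatr.g* with zeocin, and was 28.5-fold lower under mock and 19.8-fold lower under zeocin. Among abundant undescribed genes, 4HG0418190 had 611, 1064 and 712 CPM in mock WT, 434, 435 and 627 in zeocin-treated WT, 30.5, 120.1 and 192 in mock *hvatr.g*, and 92.7, 81.8 and 135 in *hvatr.g* with zeocin. Its folds were 6.97 and 4.84, and mock replicate 1 was far under the other *hvatr.g* libraries. Gene 5HG0439530 had 263, 90.3 and 272 CPM in mock WT, 219, 121 and 329.6 in zeocin-treated WT, 55.1, 44.8 and 20 in mock *hvatr.g*, and 43.6, 74.3 and 43.5 in *hvatr.g* with zeocin, with folds of 5.21 and 4.15. Its WT replicate 2 was the lowest WT library under both treatments. Gene 1HG0087150 had 177, 203 and 186 CPM in mock WT, 128, 169 and 131 in zeocin-treated WT, 55, 42.7 and 26.7 in mock *hvatr.g*, and 37.6, 30 and 32.3 in *hvatr.g* with zeocin. Its folds were 4.55 and 4.28, and in WT all zeocin-treated libraries lay under all mock libraries. The limit of the rule did not fall in a gap. Just inside it were peroxidase 1HG0025050 and the undescribed 7HG0640710 and 3HG0329870, whose larger ratios of *hvatr.g* to WT were 0.246, 0.248 and 0.249. Just outside were 5HG0473970, 4HG0335650 and peroxidase 7HG0718950, at 0.252, 0.253 and 0.253.

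Whether these genes respond to zeocin was not used to choose them, apart from the level and ratio limits that held in both treatments. In WT none of the 68 was called raised and none lowered by zeocin (edgeR quasi-likelihood test on 12 libraries), where 1.12% of all tested genes were raised and 0.902% lowered. In *hvatr.g* again none was called raised or lowered, beside 1.29% and 2.15% of all genes. Counts this near to the background are no result about the group. At an unadjusted p under 0.05 stood 3 of the 68 in WT (4.41%, against 12.5% of all tested genes) and 9 in *hvatr.g* (13.2%, against 16.0%), with 3 and 8 in DESeq2 and 6 and 6 in limma-voom. With a replicate block within each genotype these counts were 9 and 14, and 4 and 2 genes had an adjusted p under 0.05. The median log2 fold change over the group was -0.12 in WT and 0.00 in *hvatr.g*, beside 0.00 and 0.00 over all genes; the WT median was 0.17 when mock WT replicate 3 was left out and 0.05 when zeocin-treated replicate 2 was. The *hvatr.g* median ran from -0.21 without zeocin-treated *hvatr.g* replicate 2 to 0.14 without zeocin-treated *hvatr.g* replicate 3. Without regard to sign, the median log2 fold change was 0.28 in WT and 0.33 in *hvatr.g*, beside 0.13 and 0.14 over the 14885 tested genes above the same level limits. Single values ran from -1.62 to 1.86 in WT and from -1.74 to 1.30 in *hvatr.g*, with a median SE of 0.40 and 0.43. All zeocin-treated libraries lay to one side of all mock libraries for 6 genes in WT and 5 in *hvatr.g*, or 8.82% and 7.35% of the 68, while the share over all tested genes was 14.9% and 26.9%. In the same libraries the summed level of 8 B-type cyclin and CDKB genes, which drive mitosis, lay between 174 and 192 CPM in mock WT and between 46.9 and 83.1 CPM under zeocin. In *hvatr.g* it lay between 221 and 285 CPM under mock and between 17.5 and 40.4 CPM under zeocin. The study named these 8 genes as lowered by zeocin in these WT libraries, so their fall in WT follows from that choice.

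The gene with the largest zeocin change in both genotypes combined was peroxidase 2HG0215500. Its log2 fold change was -1.62 ± 0.75 (SE) in WT and -1.74 ± 0.77 in *hvatr.g*, and neither passed the test (adjusted p = 0.41 and 0.285, edgeR). In WT all 3 zeocin-treated libraries were lower than all 3 mock libraries, whereas in *hvatr.g* the groups overlapped. WT libraries with the same replicate number deviated together, and a replicate block within each genotype called this gene lower in WT (adjusted p = 0.0331) together with lipoxygenase 5HG0509210 (log2 fold change -1.05, adjusted p = 0.0449). The same block called the peroxidase lower in *hvatr.g* (-2.23, adjusted p = 0.00927), where same-numbered libraries correlated at only 0.03 to 0.18. No source states that equal numbers mark a pair in either genotype. Over all alternatives the adjusted p of the peroxidase ran from 0.0206 to 0.687 in WT and from 0.00927 to 0.551 in *hvatr.g*, and that of the lipoxygenase in WT from 0.0449 to 0.556. *ZIFL1* had 1.86 ± 0.76 in WT (adjusted p = 0.321, edgeR) and -0.33 ± 0.92 in *hvatr.g* (adjusted p = 0.951). Without zeocin-treated WT replicate 3 its WT value was 2.38 (adjusted p = 0.0468), while leaving out replicate 1 of that group gave 1.00 (adjusted p = 0.759). Protein kinase 5HG0474460 had 0.93 ± 0.24 in *hvatr.g* (adjusted p = 0.0358), just under the fold limit, and 0.45 ± 0.23 in WT (adjusted p = 0.483). The kinase passed in *hvatr.g* without mock replicate 1 (1.17) and without zeocin-treated replicate 2 (1.13). Its adjusted p there ran from 0.00188 to 0.151 over all alternatives, at 0.0514 in limma-voom, 0.0573 with 6 libraries alone and 0.12 to 0.151 without any one of mock replicates 2 and 3 and zeocin-treated replicates 1 and 3 of *hvatr.g*. Leaving out replicate 1 of mock or of zeocin-treated WT gave 0.0536 and 0.0514. Without mock *hvatr.g* replicate 3, chalcone synthase 3HG0224500 (1.51) and 7HG0659070 (2.09) were called raised there, while with all libraries they had 0.90 (adjusted p = 0.251) and 1.30 (adjusted p = 0.221). These genes were chosen after their values had been seen, and whether any of their responses differs between genotypes was not tested.

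**Figure D3:**
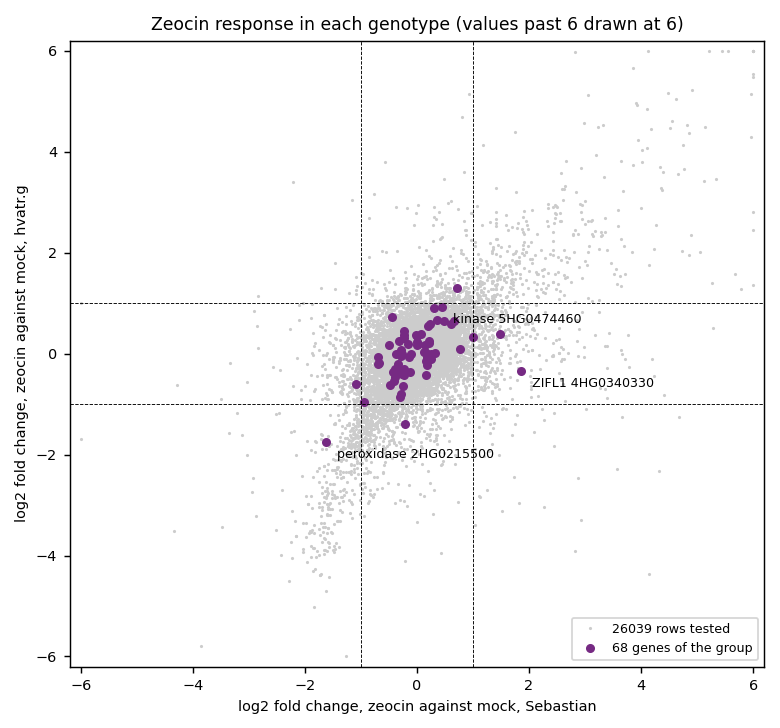
Fitted log2 fold change of zeocin against mock in WT (horizontal) and in *hvatr.g* (vertical) for the 26039 tested rows (grey) and the 68 genes (purple), with dashed lines at -1 and 1 and values past 6 drawn at 6. The 68 genes lie around the origin, from -1.62 to 1.86 in WT and from -1.74 to 1.30 in *hvatr.g*, with peroxidase 2HG0215500 at the lower left.

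Libraries of 1 group were not alike for all of these genes. The median coefficient of variation within a group was 26.8% in mock WT, 31.6% in zeocin-treated WT, 40.0% in mock *hvatr.g* and 33.8% in *hvatr.g* with zeocin. A pattern seen in the values was a contrast between WT replicates 2 and 3. In 12 of the 68 genes, or 17.6%, replicate 3 was at least 2 times replicate 2 under both treatments, and the opposite held for 1 gene (1.47%). Among all 14885 tested genes with levels above the same limits, the shares were 1.24% and 1.08%. In the 12 genes replicate 3 exceeded replicate 2 by 2.49 to 6.69 times under mock and by up to 10.4 times under zeocin. They were the universal stress protein, B12D, trypsin inhibitors 4HG0405640 and 3HG0222370, the putative transcription factor 3HG0238260, the Enhancer of polycomb-like gene, endoglucanase 1HG0086330, alpha/beta-hydrolase 2HG0186020, 2-aminoethanethiol dioxygenase 5HG0425090, maternal effect embryo arrest gene 5HG0512930 and the undescribed 3HG0222410 and 5HG0439530. An enzyme with the dioxygenase's name oxidises a small thiol in animals. For example, 5HG0512930 had 23.6, 7.7 and 48.6 CPM in mock WT, 37.1, 12.3 and 89.6 in zeocin-treated WT, 6.31, 6.11 and 5.26 in mock *hvatr.g*, and 4.19, 7.57 and 7.55 in *hvatr.g* with zeocin. Its WT replicate 2 came nearly down to the *hvatr.g* level, and its folds were 4.52 and 7.2. The alpha/beta-hydrolase gene had 8.65, 2.74 and 15 CPM in mock WT, 14.3, 3.48 and 36.2 in zeocin-treated WT, 2.16, 1.24 and 0.97 in mock *hvatr.g*, and 1.74, 1.93 and 2.09 in *hvatr.g* with zeocin, so its lowest WT library was only a little above its highest *hvatr.g* library. In *hvatr.g* mock replicate 3 was the lowest of its group for 10 of them and zeocin-treated replicate 2 the highest of its group for 9. The likeness of same-numbered WT replicates in these 12 genes is how they were picked and no result of its own.

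A different set moved with expansin 3HG0318580. Over the 12 libraries, after each group mean was subtracted on the log2 scale, 6 genes had a Pearson correlation of at least 0.8 with it: the other 4 expansins, peroxidase 2HG0215500 and the undescribed 4HG0409010. The correlations ran from 0.81 to 0.98. They are across libraries that share depth and handling, the gene was picked after its values were seen, and no p is attached. The median over all pairs of the 68 genes was 0.11. None of the 7 was among the 12 genes above. In zeocin-treated *hvatr.g* all 7 were lowest in replicate 3, by a median of 1.63 under the group mean on the log2 scale, and this library was the lowest of its group for 38 of the 68. The share over all tested genes was not computed, so this count cannot be read as a trait of the 68. Without this library the zeocin fold of 3HG0318580 was 5.34 in place of 7.35, that of 3HG0318880 11.9 in place of 16.7 and that of the peroxidase 4.35 in place of 6.40. The undescribed 4HG0409010, at 3.70, would then have missed the limit of the rule.

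**Figure D4:**
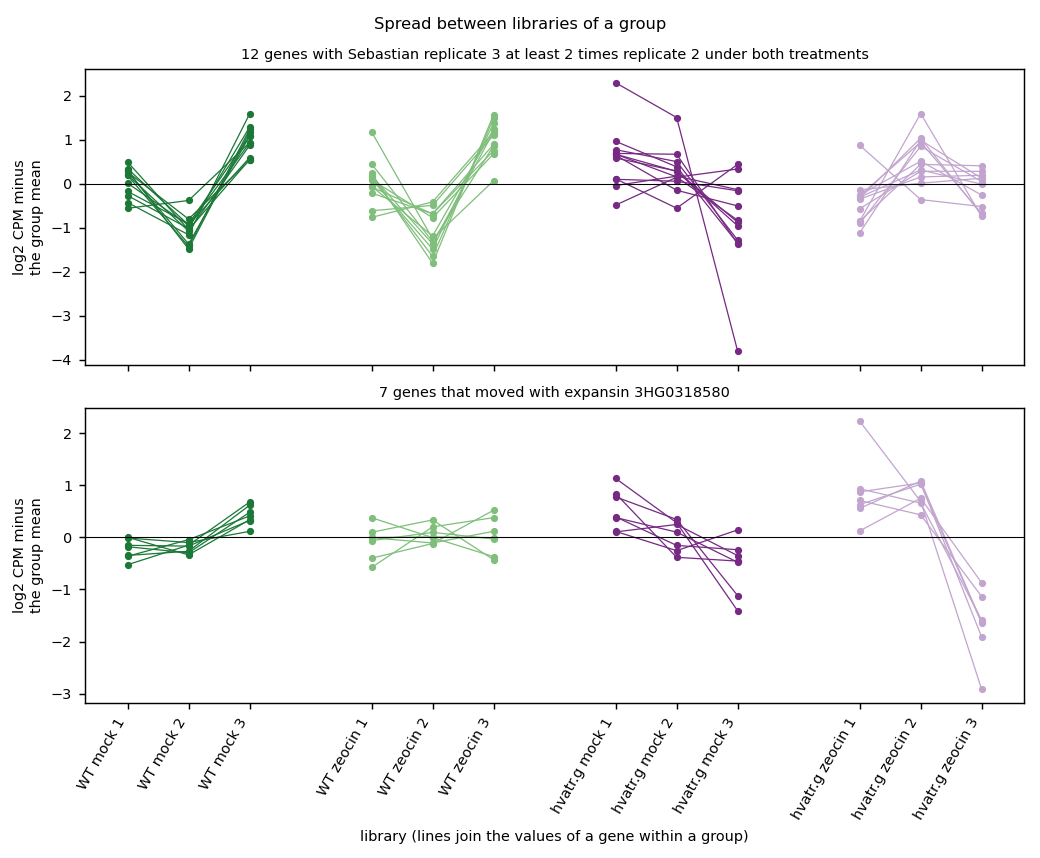
log2 CPM minus the group mean for the 12 genes in which WT replicate 3 was at least 2 times replicate 2 (upper panel) and for the 7 genes that moved with expansin 3HG0318580 (lower panel), in all 12 libraries, with lines joining the values of a gene within a group. In the upper panel WT replicate 2 is low and replicate 3 high in both treatments, and in the lower panel zeocin-treated *hvatr.g* replicate 3 lies under the group mean for all 7 genes.

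The 68 genes were spread over all 7 chromosomes, with 11 on 1H, 14 on 2H, 18 on 3H, 6 on 4H, 12 on 5H, 2 on 6H and 5 on 7H. As a share of tested genes this ranged from 0.0631% on 6H to 0.458% on 3H, and stretches of 7H had been left out by the rule. By gene order, 12 genes lay in 6 pairs of which the partners were at most 10 places apart, and no run was longer than 2. The pairs joined pectin lyase-like 1HG0000380 with jasmonate-induced 1HG0000390, 2HG0112640 with peroxidase 2HG0112660, trypsin inhibitor 3HG0222370 with 3HG0222410, chalcone synthase 3HG0224500 with 3HG0224510, expansin 3HG0318560 with 3HG0318580, and expansin 3HG0318870 with 3HG0318880. The nearest tested gene on either side of the 68, where it was not itself one of them, gave 127 neighbours. Under mock 23 of these, or 18.1%, were called lower in *hvatr.g*, against 4.58% of all tested genes, and 5 (3.94%) were called higher, against 3.87%. Under zeocin 27 (21.3%) were called lower, against 5.56%. The median log2 fold change of the neighbours under mock was -0.05, beside 0.02 over all tested rows. Of the 127 neighbours, 3 carried the same description as the gene of the 68 beside them, and 2 of these were called lower under mock. Descriptions were at hand mostly for lowered genes, so this count is shaped by that choice. Between 2HG0112640 and 2HG0112660 lies peroxidase 2HG0112650, with mean levels under mock of 2.59 CPM in WT and 0.0924 CPM in *hvatr.g*. Beside dirigent 5HG0427560 lies dirigent 5HG0427570, at 0.733 CPM in mock WT and with no count in mock *hvatr.g*. Metallothionein 1HG0061580, beside metallothionein 1HG0061550, had 37.7 CPM in mock WT and 9.63 CPM in mock *hvatr.g* and was not called under mock. Under zeocin it had 126 CPM in WT and 12.9 CPM in *hvatr.g* and was called lower. After the 1H pair, pectin lyase-like genes 1HG0000420 and 1HG0000460 went from 1.28 to 0.0422 CPM and from 8.68 to 0.552 CPM between WT and *hvatr.g* under mock. Jasmonate-induced 1HG0000430 and 1HG0000480 went from 5.64 to 0.614 CPM and from 0.445 to 0.0689 CPM. How alike the sequences of such neighbours are was not examined, and reads shared between similar copies could not be separated, because how reads with several mapping places were counted is not given in the sources used here.

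Around the 3H expansins the lower genes did not form an unbroken block. From 3HG0318500 to 3HG0318880, 15 genes were tested. Next to the first expansin pair, the undescribed 3HG0318590 fell by 1.83 on the log2 scale under mock (adjusted p = 0.000327, edgeR) and endo-1,3-beta-glucanase 3HG0318620 by 3.58 (adjusted p = 0.000549). Farther on, the undescribed 3HG0318650 and 3HG0318660 were at -0.24 and 0.04 (adjusted p = 0.508 and 0.856). Cytokinin oxidase/dehydrogenase 3HG0318720, which breaks down the hormone cytokinin, rose by 1.19 (adjusted p = 0.036), and Bax inhibitor-1 family gene 3HG0318810 rose by 2.64 (adjusted p = 0.000202) from a mean of 0.222 to 1.46 CPM. The second expansin pair followed after these.

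**Figure D5:**
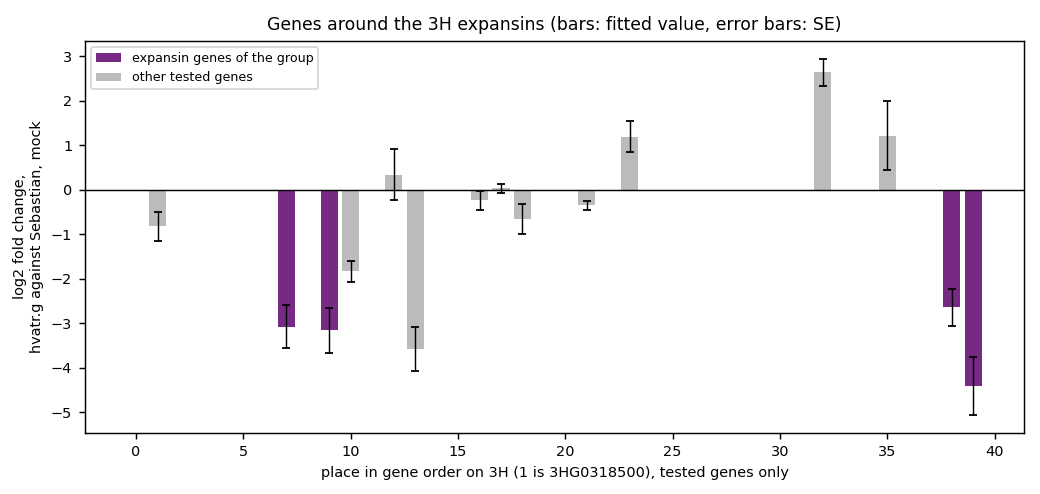
Fitted log2 fold change of *hvatr.g* against WT under mock (bars, with SE) for the tested genes from 3HG0318500 to 3HG0318880, in gene order on 3H, with the expansins of the group in purple and other tested genes in grey. The 4 expansins lie between -2.64 and -4.40, and the grey bars between the pairs lie on both sides of 0, from -3.58 to 2.64.

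Markers of dividing cells did not follow the group under mock. None of the 131 histone genes was called lower or higher in mock *hvatr.g* (edgeR, and likewise in DESeq2 and limma-voom), with 6 at an unadjusted p under 0.05 and a median log2 fold change of -0.06. Of the 8 B-type cyclin and CDKB genes none was called by these tools either, with 1 at an unadjusted p under 0.05 and a median of 0.34. All 8 were somewhat higher in mock *hvatr.g*, with log2 fold changes from 0.16 to 0.54. Their summed level lay between 221 and 285 CPM in mock *hvatr.g* and between 174 and 192 CPM in mock WT. Under zeocin 17 histone genes and 6 of the 8 were called lower in *hvatr.g* than in WT, with medians of -0.72 and -1.13. The histone genes came from the study's tables of genes changed by zeocin in these libraries. The 8 cyclin and CDKB genes were named by the study as lowered by zeocin in WT. The zeocin values of both sets are therefore not independent of that choice. The summed histone level lay between 11281 and 15524 CPM in mock WT and between 12818 and 13037 CPM in mock *hvatr.g*. The rule required all 68 genes to be lower under both treatments, and for 56 the 2 folds lay within 1.5 times of each other. The part of dividing cells in the lower levels was not tested. The same excerpt of descriptions held 3 genes with Casparian strip or root hair terms, which would mark differentiated cells, and 1 had enough counts. It was at -1.73 under mock and -0.91 under zeocin and was not called by edgeR (DESeq2 called it lower under mock), so differentiated cell types could not be judged by markers of their own. In the DNA damage response list 7 of the 322 tested genes were called higher and 2 lower under mock, against 3.87% and 4.58% of all tested genes, and 9 higher and 10 lower under zeocin, against 3.46% and 5.56%, with medians of 0.13 and 0.08.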

How the data were processed

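RNA-seq of root apices was done by the study in 3 biological replicates for each of 4 groups. Per its methods, read pairs were trimmed (Trim Galore), aligned to the third Morex genome (HISAT2 2.1.0) and counted on genes (Subread 1.5.2). The authors deposited raw counts per transcript model, with no normalization. How strand and multi-mapping reads were treated is not given in the sources used here. Counts were divided by the column total and multiplied by 1000000 to give CPM, and the group was chosen on these values. The group and all gene lists were chosen with earlier results of these data known.

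Tests were run with edgeR 4.0.16 in R 4.3.3 on the 26039 of 83990 rows kept by filterByExpr, with TMM scaling (factors 0.927 to 1.05) and 1 quasi-likelihood fit over 12 libraries with a coefficient per group. The Benjamini-Hochberg adjustment ran over all tested rows. Calls required an absolute log2 fold change of at least 1 and an adjusted p under 0.05. An SE is the absolute log2 fold change divided by the root of the F statistic. The fit was tested on simulated data. DESeq2 1.42.0, limma-voom (limma 3.58.1), other scalings and filters, 6 libraries alone, a replicate block and leaving out each library were alternatives. Figures were drawn with matplotlib 3.10.9. Total counts of 36100439 to 74699245 set the precision, and with 3 libraries a group no exact two-sided test goes below 0.1.

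Pairing was checked by correlating deviations from group means over all tested rows. Same-numbered mock and zeocin-treated libraries correlated at 0.31 to 0.54 in WT and at 0.03 to 0.18 in *hvatr.g*. Libraries with different numbers correlated at -0.42 to 0.18 in WT and at -0.23 to 0.07 in *hvatr.g*. The sources do not state that equal numbers mark a shared batch, so a pairing was not established in either genotype. The methods call the replicates biological and describe the plant material as prepared like that of an RT-qPCR experiment in which each sample was 1 plant.

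Described by values in every library, or by fold, were the 10 genes with the highest mock WT level, the 10 with the lowest mean log2 ratio, the 2 most abundant of each functional class with 2 or more genes, and those next to the ratio limit. Genes given for their zeocin change or for their spread between libraries were chosen after their values were seen. Gene lists come from the study's supplementary tables, and gene descriptions from an excerpt of them ordered by the change in zeocin-treated *hvatr.g* and from its lists of genes changed by zeocin. Sequences and promoters were not used here.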

Additional observations from a re-analysis of the deposited data

How the results depend on the processing

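The number of genes in the group depended on the ratio limit, with 37 at a limit of 0.2 and 131 at a limit of 1/3. With TMM-scaled CPM it was 82 and with RLE-scaled CPM 84, and 66 of the 68 were kept in each. Leaving out 1 library at a time gave 58 to 80 genes. Under the replicate block within each genotype, an alternative added after the data were seen, 2 genes were called lowered by zeocin in WT and 1 in *hvatr.g*: the peroxidase 2HG0215500 at log2 fold changes of -1.66 and -2.23, and in WT the lipoxygenase 5HG0509210 at -1.05. With a replicate block common to both genotypes 0 were called, as in the main analysis, and the block moved no other count by more than 1.5 times. With 6 libraries compared alone 1 gene was called lowered in WT, the peroxidase (-1.62), and 1 gene of the DNA damage response list was called lower in mock *hvatr.g*.

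Leaving out 1 library at a time, 0 to 1 genes were called raised by zeocin in WT and 0 to 2 in *hvatr.g*. The hydrogen peroxide catabolic list had 18 to 34 genes called lower in mock *hvatr.g*, the nicotianamine list 3 to 8, the histone list 0 to 1, the DNA damage response list 1 to 3 and the nitrogen transport list 16 to 25. In limma-voom the nicotianamine list had 1. The zeocin change of *ZIFL1* in *hvatr.g*, which was never called, lay between -0.66 and 0.61 and changed sign to 0.61 without mock *hvatr.g* replicate 1. The cause of these shifts was not tested. The other alternatives, scalings and filters included, left the zeocin counts at 0. Runs of neighbouring genes numbered 5 with partners at most 3 places apart and 6 with partners at most 30 places apart. At 30 places the runs held 14 genes, and 1 run joined 4 expansins of 3H, so the longest run depends on the distance. Promoter motifs were planned and not run. Depth limits the weakest genes most, with as few as 4 counts in an *hvatr.g* library.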

Other observations

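Genes that just missed the group give its surroundings. Outside the listed identifiers, 6 rows met every level and ratio condition but had overlapping libraries, and 11 were left out because their *hvatr.g* mean was under 0.5 CPM in at least 1 treatment. A further 26 rows with the required levels were at or under 0.25 of WT under mock only, and 37 under zeocin only, before overlap and identifiers were considered.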
